A study of Mus musculus with 2 samples.

Results

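The 4 genes described here encode the subunits of the ATP-sensitive potassium (KATP) channel. They were taken by their symbols from the 55357 genes listed in both count matrices, by a rule that used no measured value. Earlier results of these data were known when the genes were chosen. Kcnj8 and Kcnj11 encode the pore subunits Kir6.1 and Kir6.2, and Abcc8 and Abcc9 encode the sulfonylurea receptors SUR1 and SUR2. Each symbol matched a single row, so all 4 members were measured in both libraries. In the cells kept for the analysis Kcnj8 had 821 Sham and 1183 TAC UMIs, Kcnj11 had 558 and 530, Abcc8 had 1172 and 971, and Abcc9 had 10929 and 13451. A UMI is a random tag put on each captured mRNA molecule before amplification, so each molecule is counted once.

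The KATP channel is an inwardly rectifying potassium channel that closes when ATP binds to its pore subunits and opens when magnesium-bound nucleotides act on its receptor subunits, so that it ties the membrane potential to the energy state of the cell. Pore and receptor subunits are assembled together, and neither reaches the cell surface well without the other. In the heart the channel of the ventricular muscle membrane is classically described as Kir6.2 with SUR2A, the channel of vascular mural cells as Kir6.1 with SUR2B, and SUR1 has been described in mouse atrial muscle. SUR2A and SUR2B are splice forms of Abcc9 that differ at the end of the protein, and gene counts do not tell them apart.

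Both libraries came from hearts of C57BL/6 mice, and the labels name no transgene or deletion in either group. The TAC mice were males whose aortic arch was tied at 8 weeks of age and kept constricted for 6 weeks, which overloads the left ventricle. The Sham mice went through the same surgery with no tie placed around the aorta, and their age and sex are not given apart. The design text of the series calls the control mice uninjured instead, and the sources used here do not settle which holds. Cells of 3 to 5 hearts were combined into each library, so there was 1 library per condition, the spread between hearts is unknown, and no test between Sham and TAC was possible. All intervals below are 95% intervals that cover counting error only.

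Sham gave 9935 barcodes with 28146691 UMIs and TAC 9932 barcodes with 29108986 UMIs, of which 32 barcode sequences occurred in both libraries. The median mitochondrial share per cell was 0.452% in Sham and 0.285% in TAC. After filtering and doublet removal, 9475 Sham and 9452 TAC cells remained. Cells were clustered with the 4 members left out and named from marker genes, so the names are rebuilt ones. Cardiomyocytes numbered 2513 in Sham and 2396 in TAC, pericytes 1064 and 1043, smooth muscle cells 50 and 43, endothelial cells 1904 and 2252, lymphatic endothelial cells 85 and 110, and macrophages 1412 and 1346. Fibroblasts were not compared between the libraries, because 1627 TAC cells with 8 fibroblast markers stayed unnamed. The pericyte cluster of each library carried all 9 pericyte markers, and the smooth muscle cluster carried 5 of 7 smooth muscle markers in both libraries. Load-response genes, which are known to be raised in overloaded cardiomyocytes, were not raised together in the library labelled TAC. Nppa and Nppb, which encode natriuretic peptides, had TAC to Sham ratios of 0.754 and 0.772, skeletal actin Acta1 of 0.355, the slow myosin Myh7 of 1.36 and Ankrd1 of 1.01, so that 0 of these 5 genes were past 1.5-fold higher and 1 was past it lower, where 24.6% of all genes were past it in either direction. The first 3 of them were lower in TAC, the labels were not checked in another way, and every ratio below compares the libraries as they are labelled.

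The 4 genes lie as 2 pore and receptor pairs. On the GRCm38 annotation of GENCODE M21, Kcnj8 (ENSMUSG00000030247) is at chr6:142564837-142571614 and Abcc9 (ENSMUSG00000030249) at chr6:142587862-142702315, both on the minus strand, 16247 bases apart with 0 annotated genes between them. Kcnj11 (ENSMUSG00000096146) is at chr7:46093953-46100764 and Abcc8 (ENSMUSG00000040136) at chr7:46104523-46180033, also on the minus strand and 3758 bases apart with 0 genes between. All 4 are protein-coding. Kcnj8 and Abcc9 were the pair found together in pericytes, so the bases before their starts are shown here from RefSeq (GRCm38.p6, minus strand), 250 bases at chr6:142571615-142571864 for Kcnj8 and 209 bases at chr6:142702316-142702524 for Abcc9, both ending at the base before the GENCODE start. The RefSeq table used here matched 2 of the 4 genes. Capitals mark an E-box (CANNTG, which reads the same on both strands) in Kcnj8 and a GC box (GGGCGG, found on the opposite strand) in Abcc9.
Kcnj8: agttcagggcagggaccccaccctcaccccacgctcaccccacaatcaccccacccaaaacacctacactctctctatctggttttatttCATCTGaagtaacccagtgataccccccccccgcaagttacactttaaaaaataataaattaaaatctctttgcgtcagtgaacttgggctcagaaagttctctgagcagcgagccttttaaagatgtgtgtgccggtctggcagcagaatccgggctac
Abcc9: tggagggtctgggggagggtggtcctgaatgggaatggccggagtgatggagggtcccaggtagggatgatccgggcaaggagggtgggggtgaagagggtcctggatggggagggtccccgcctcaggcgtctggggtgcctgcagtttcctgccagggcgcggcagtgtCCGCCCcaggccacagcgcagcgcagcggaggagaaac
The E-box lay 155 to 160 bases before the Kcnj8 start, and 66.2% of the 32851 windows of 250 bases in the table held an E-box. The GC box lay 74 to 79 bases before the RefSeq start of Abcc9, and 26.5% of windows of 209 bases held a GC box. Searches on both strands for the TATA box (TATAAA), the MEF2 site, the CArG box and the letters CCAAT found 0 matches in either window. The windows differed in base composition, with 49.2% G and C before Kcnj8 and 68.4% before Abcc9. No motif that was searched for was found in both windows.

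The subunits fell into different cell types in both libraries. Of the Kcnj8 UMIs, 92.0% in Sham (interval 89.9% to 93.7%) and 92.1% in TAC (90.5% to 93.6%) were in pericytes, the contractile support cells that wrap capillaries. Of the Abcc9 UMIs, 67.1% in Sham (66.2% to 67.9%) and 65.6% in TAC (64.8% to 66.4%) were in pericytes, and most of the others, 28.1% and 30.5%, were in cardiomyocytes. Of the Kcnj11 UMIs, 95.5% in Sham (93.5% to 97.1%) and 93.2% in TAC (90.7% to 95.2%) were in cardiomyocytes. Abcc8 was placed like Kcnj11, with 95.1% (93.6% to 96.2%) and 95.5% (93.96% to 96.7%) of its UMIs in cardiomyocytes. These shares rest on how cells were assigned: with types taken from the markers seen in each cell rather than from clusters, which leaves cells without clear markers untyped, the pericyte share of Kcnj8 was 36.9% in Sham and 52.3% in TAC, and that of Abcc9 was 31.9% and 38.2%.

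**Figure D1:**
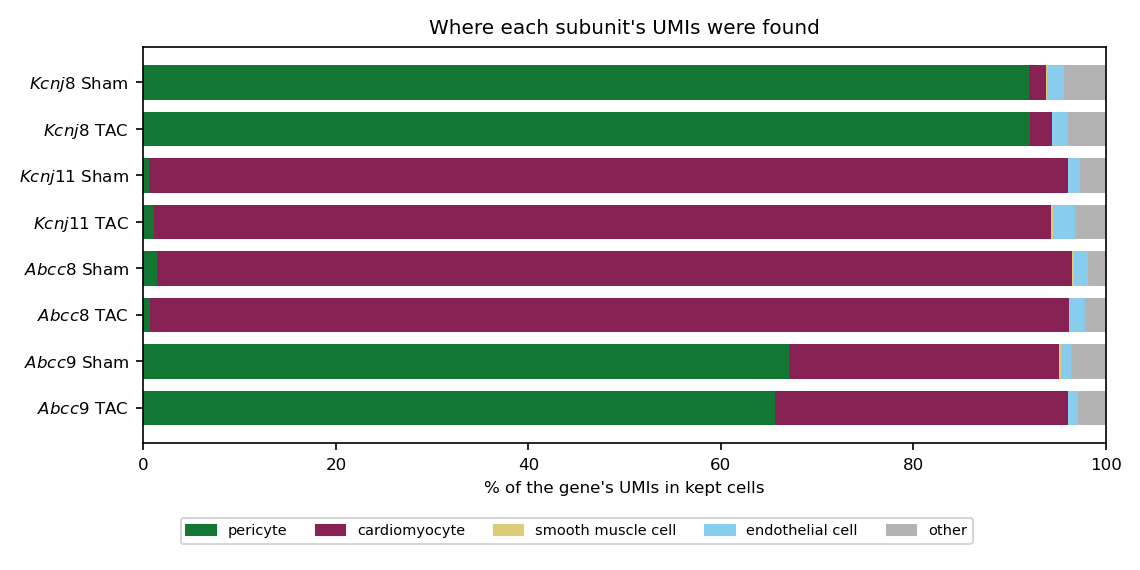
Share of each subunit gene's UMIs (horizontal axis, % of the UMIs in kept cells) by cell type, with 1 bar for each gene and library and the rarer types together as other. Kcnj8 is nearly all pericyte (92.0% in Sham and 92.1% in TAC), Kcnj11 and Abcc8 are nearly all cardiomyocyte, and Abcc9 is divided between both types.

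Of the pore genes, Kcnj8 was read at 411 UMIs per 1000000 UMIs in Sham pericytes (interval 383 to 442) and 567 in TAC pericytes (534 to 602). In the other types with at least 40 cells in both libraries the level was far lower. Kcnj8 stood at 5.77 in Sham and 5.88 in TAC endothelial cells, at 1.81 and 3.07 in macrophages, and at 1.11 and 2.06 in cardiomyocytes. The lymphatic endothelial values of 5.47 and 11.7 rest on 1 and 3 UMIs, and the Sham fibroblast value of 4.61 rests on 25. Within a library, the intervals of endothelial cells, lymphatic endothelial cells, smooth muscle cells and fibroblasts overlapped, so below pericytes their order was not resolved. Among rarer types, 37 Sham T cells held 5 Kcnj8 UMIs, which is 100 per 1000000 with an interval of 32.6 to 234, and 57 TAC T cells held 1. The pericyte level was 370 times that of cardiomyocytes in Sham (223 to 664) and 275 times in TAC (188 to 420), and 71.3 and 96.5 times that of endothelial cells. A Kcnj8 UMI was seen in 42.1% of Sham and 57.0% of TAC pericytes.

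Kcnj11 was highest in cardiomyocytes, at 39.5 UMIs per 1000000 in Sham (36.2 to 43.0) and 37.7 in TAC (34.4 to 41.1). In pericytes it had 3 UMIs in Sham and 6 in TAC, which are 1.63 (0.337 to 4.78) and 3.12 (1.15 to 6.79) per 1000000. The levels in endothelial cells were 2.89 and 3.71 and those in macrophages 1.81 and 3.07, with intervals that overlapped those of pericytes. The cardiomyocyte level was 24.2 times the pericyte level in Sham (8.23 to 118) and 12.1 times in TAC (5.50 to 33.0). A Kcnj11 UMI was seen in 17.1% of Sham and 17.6% of TAC cardiomyocytes, with up to 6 UMIs in a cell.

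Of the receptor genes, Abcc9 was read at 3994 UMIs per 1000000 in Sham pericytes (3903 to 4086) and 4589 in TAC pericytes (4494 to 4686). Cardiomyocytes had 228 (220 to 236) and 312 (303 to 322). The Sham levels of smooth muscle cells (157), lymphatic endothelial cells (87.5), fibroblasts (50.5), endothelial cells (49.1) and macrophages (40.7) followed in that order, and the intervals of neighbours in this order overlapped, that of smooth muscle cells (96.0 to 243) with cardiomyocytes as well. The smooth muscle value moved with the way cells were named, as given below, so its place in the order is not fixed. A single lymphatic endothelial cell held 11 of the 16 Sham UMIs of that type. In TAC the smooth muscle level was 71.7, the endothelial level 43.9, the lymphatic endothelial level 31.3 and the macrophage level 27.6. The 36 TAC B cells held 23 Abcc9 UMIs, 15 of them in a single cell. The pericyte level was 17.5 times the cardiomyocyte level in Sham (16.8 to 18.3) and 14.7 times in TAC (14.2 to 15.3).

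Abcc8, best known as the receptor subunit of the pancreatic beta cell channel, was read at 82.6 UMIs per 1000000 in Sham cardiomyocytes (77.8 to 87.6) and 70.7 in TAC cardiomyocytes (66.2 to 75.4). The pericyte levels were 9.26 (5.40 to 14.8) and 3.64 (1.46 to 7.50). Endothelial cells had 7.01 and 4.95 and macrophages 3.17 and 3.83. The cardiomyocyte level was 8.92 times the pericyte level in Sham (5.54 to 15.4) and 19.4 times in TAC (9.38 to 48.4). An Abcc8 UMI was seen in 31.2% of Sham and 29.3% of TAC cardiomyocytes.

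**Figure D2:**
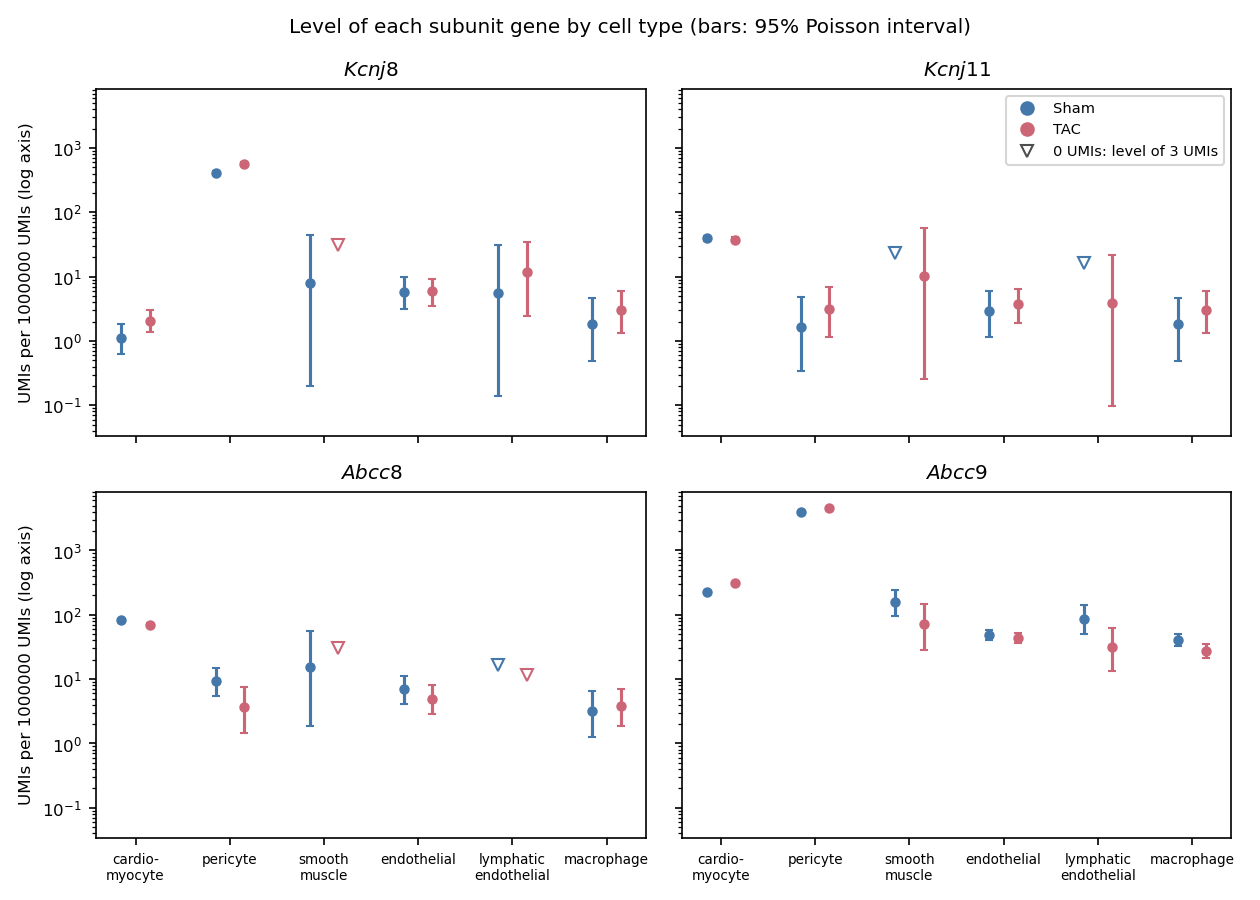
Level of each subunit gene (vertical log axis, UMIs per 1000000 UMIs of the cell type) in 6 cell types, for Sham and TAC. Points are levels with exact Poisson 95% intervals, which are smaller than the point where many UMIs were counted, and open triangles stand at the level of 3 UMIs where 0 were counted. Kcnj8 and Abcc9 peak in pericytes (411 and 3994 in Sham), and Kcnj11 and Abcc8 peak in cardiomyocytes (39.5 and 82.6 in Sham).

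Transcripts freed from broken cells can add UMIs to any droplet, so low levels were set beside reference genes of the cell type where each member was highest. Cardiomyocyte reference genes (Myh6, Ttn, Tnnt2 and Ryr2) were read in pericytes at 2.47% to 5.32% of their cardiomyocyte level in Sham and 2.52% to 4.02% in TAC. Kcnj11 in pericytes was at 4.14% and 8.29% of its cardiomyocyte level, with 3 and 6 UMIs, so the Sham value lay within the reference range and the TAC value above it, although its interval of 3.04% to 18.0% reached into the range. Abcc8 in pericytes was at 11.2% and 5.15% of its cardiomyocyte level, above the range in both libraries, with 17 and 7 UMIs and intervals of 6.53% to 18.0% and 2.07% to 10.6%. The Sham interval lay wholly above the reference range and the TAC interval did not. Pericyte reference genes (Rgs5, Vtn, Higd1b and Pdgfrb) were read in cardiomyocytes at 0.253% to 0.894% of their pericyte level in Sham and 0.280% to 0.469% in TAC. Kcnj8 in cardiomyocytes was within that range at 0.270% and 0.363%, while Abcc9 was above it at 5.70% and 6.80%. In endothelial cells, Kcnj8 (1.40% and 1.04% of the pericyte level) and Abcc9 (1.23% and 0.957%) were within or below the reference ranges of 1.15% to 5.68% in Sham and 1.21% to 2.91% in TAC. At these levels free RNA and low expression in endothelial cells cannot be told apart. Macrophage Abcc9, at 1.02% and 0.602% of the pericyte level, was also within its reference ranges of 0.606% to 1.59% and 0.463% to 2.01%.

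Both the pore genes and the receptor genes stood in different proportions in pericytes and cardiomyocytes. Gene length and capture cancel when the ratio of 2 genes is compared between cell types, so these ratios were used in place of levels of different genes. Sham pericytes had 755 Kcnj8 and 3 Kcnj11 UMIs, a ratio of 252 (85.8 to 1223), and Sham cardiomyocytes had 15 and 533, a ratio of 0.0281 (0.0156 to 0.0468). In TAC the ratios were 182 (83.2 to 496) and 0.0547 (0.0357 to 0.0805). For the receptors, Abcc9 per Abcc8 was 431 in Sham pericytes (269 to 740) and 2.76 in Sham cardiomyocytes (2.57 to 2.95). In TAC it was 1260 in pericytes (611 to 3136) and 4.42 in cardiomyocytes (4.11 to 4.75). The pore ratios hold few counts of the minor gene, at levels near those of the reference genes, so their size is not a measure of how far the cell types differ. In both libraries the intervals of pericytes and cardiomyocytes did not overlap for either ratio.

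Vascular smooth muscle cells had few counts of all 4 genes. The 50 Sham cells held 1 Kcnj8, 0 Kcnj11, 2 Abcc8 and 20 Abcc9 UMIs among 127313, and the 43 TAC cells held 0, 1, 0 and 7 among 97590. For Kcnj8 this is 7.85 per 1000000 in Sham (0.199 to 43.8), and 0 UMIs in TAC allow a level of up to 30.7. The pericyte level of Kcnj8 was 52.4 times the Sham smooth muscle level (9.37 to 2072). Abcc9 was at 157 per 1000000 in Sham smooth muscle cells (96.0 to 243) and 71.7 in TAC (28.8 to 148), which are 3.93% and 1.56% of the pericyte level. A single cell held 9 of the 20 Sham UMIs. Of the pericyte reference genes, Rgs5 was at 33.9% and 27.1% of its pericyte level in smooth muscle cells, and Vtn was at 0 UMIs in both libraries. All 8 Sham and all 5 TAC smooth muscle cells with an Abcc9 UMI also held a UMI of a pericyte reference gene, as did 64.3% of 42 Sham and 71.1% of 38 TAC cells without one. The contractile myosin Myh11 was read at 3982 and 3832 per 1000000 in these cells and at 79.0 and 57.2 in pericytes. At this depth a Kcnj8 level below these limits was not detectable in smooth muscle cells. The Abcc9 value depended on which cells were named smooth muscle. At a clustering resolution of 2 in place of 1, 92 Sham cells were so named in place of 50, and Abcc9 was at 957 per 1000000. The Sham pericytes then numbered 1022 in place of 1064, and whether the added cells came from the pericyte cluster was not tested. With doublets left in, 87 TAC cells were so named, Abcc9 was at 1111 and the TAC to Sham ratio was 7.49, against 0.457 without them. With cells typed by their own markers the levels were 782 in Sham and 837 in TAC.

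Single cells were then compared after drawing 1000 UMIs from each, which left out 190 Sham and 88 TAC pericytes with fewer. Abcc9 was found in 93.7% of the 874 Sham pericytes (91.9% to 95.2%) and 96.0% of the 955 TAC pericytes (94.6% to 97.2%), with a median of 4 UMIs per cell in both libraries and highest values of 15 and 16. Kcnj8 was found in 30.4% (27.4% to 33.6%) and 38.7% (35.6% to 41.9%) of these cells, with a median of 0. In cardiomyocytes at the same depth, Abcc9 was found in 19.8% of 2477 Sham cells (18.3% to 21.4%) and 26.1% of 2385 TAC cells (24.4% to 27.9%). Endothelial cells gave 3.76% and 3.93%, and smooth muscle cells 3 of 44 (6.82%) and 4 of 41 (9.76%). Kcnj11 was found in 3.88% and 3.23% of cardiomyocytes and in 0.114% and 0.105% of pericytes, and Abcc8 in 9.08% and 7.59% of cardiomyocytes and in 0.801% and 0.314% of pericytes. Abcc9 was thus read in nearly every pericyte. At 1000 UMIs per cell each of the other subunits was seen in a minority of the cells of its main type. The Abcc9 gene spans 114454 bases, Abcc8 75511, Kcnj11 6812 and Kcnj8 6778, and whether intronic reads were counted is not given. Detection can differ with gene length and capture, so these shares do not rank the subunits by amount.

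**Figure D3:**
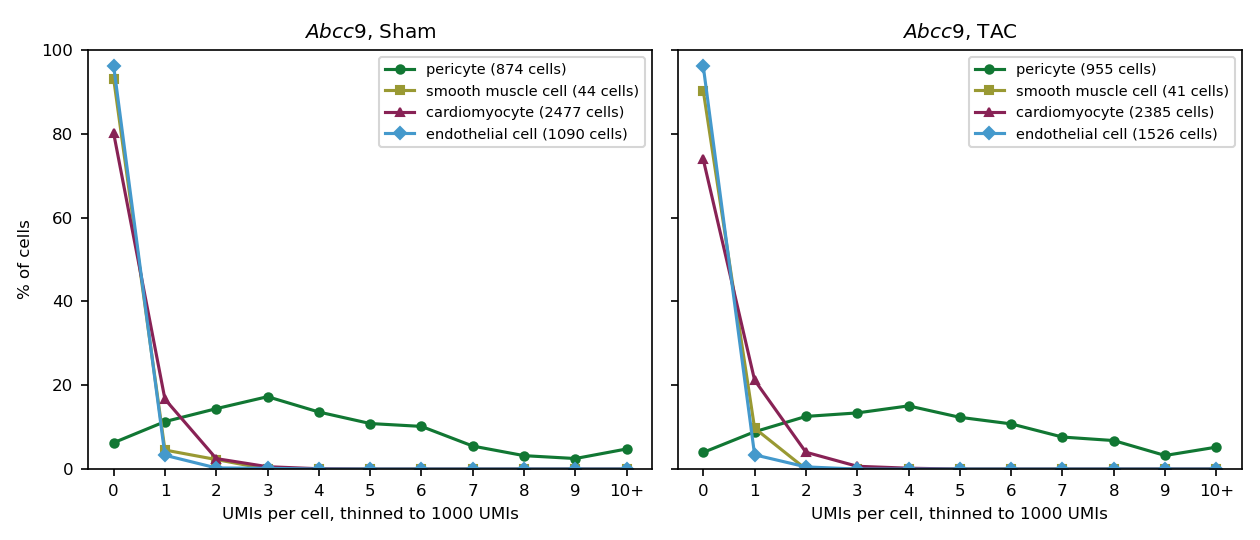
Distribution of Abcc9 UMIs per cell after drawing 1000 UMIs from each cell (horizontal axis, UMIs, with 10 or more together, and vertical axis, % of cells of the type), for Sham and TAC. Pericytes spread around a median of 4 UMIs, and most smooth muscle cells, cardiomyocytes and endothelial cells are at 0.

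The pairing of subunits within single cells was read as the share of cells with the receptor UMI among cells with and without the pore UMI. In Sham pericytes, 257 of the 266 cells with Kcnj8 also had Abcc9 (96.6%, 93.7% to 98.4%), against 562 of the 608 without it (92.4%, 90.0% to 94.4%). In TAC pericytes the shares were 95.4% (353 of 370) and 96.4% (564 of 585). The intervals overlapped in both libraries, but the Sham gap varied between settings, and each thinned setting drew its UMIs anew. With the barcodes found in both libraries removed, 1063 of the 1064 Sham pericytes were left. The Sham shares were then 97.9% (95.4% to 99.2%) and 91.8% (89.2% to 93.8%), and without thinning 97.1% (95.1% to 98.4%) and 91.6% (89.1% to 93.6%), which did not overlap. With at most 25% mitochondrial UMIs the TAC pericytes again numbered 1043, and their newly drawn shares were 95.7% and 95.4%. The effect of a new draw was not separated from that of the removed barcodes. In cardiomyocytes, Abcc9 was found in 21.9% of the 96 Sham cells with Kcnj11 (14.1% to 31.5%) and 19.7% of those without it (18.2% to 21.4%). The TAC shares were 18.2% (10.3% to 28.6%) and 26.4% (24.6% to 28.2%). Abcc8 was found in 6.25% of Sham cells with Kcnj11 and 9.20% of those without it, and in 9.09% and 7.54% of TAC cells. Abcc9 was found in 45 of the 225 Sham cells with Abcc8 and in 19.8% of those without it, and in 22.1% and 26.5% of TAC cells. All these cardiomyocyte intervals overlapped, and with most cells at 0 UMIs a weak link between the genes was not detectable at this depth. Without thinning, depth was not equal between cells, and cardiomyocytes showed gaps too. Abcc9 was then found in 65.8% (61.1% to 70.3%) of Sham cells with Kcnj11 and 51.9% (49.8% to 54.1%) of those without it. The TAC shares were 74.9% and 66.0%, also without overlap. The Abcc8 intervals with and without Kcnj11 did not overlap in either library. The Abcc9 intervals with and without Abcc8 overlapped in TAC only. The unthinned Sham gap was thus not particular to the pericyte pair.

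**Figure D4:**
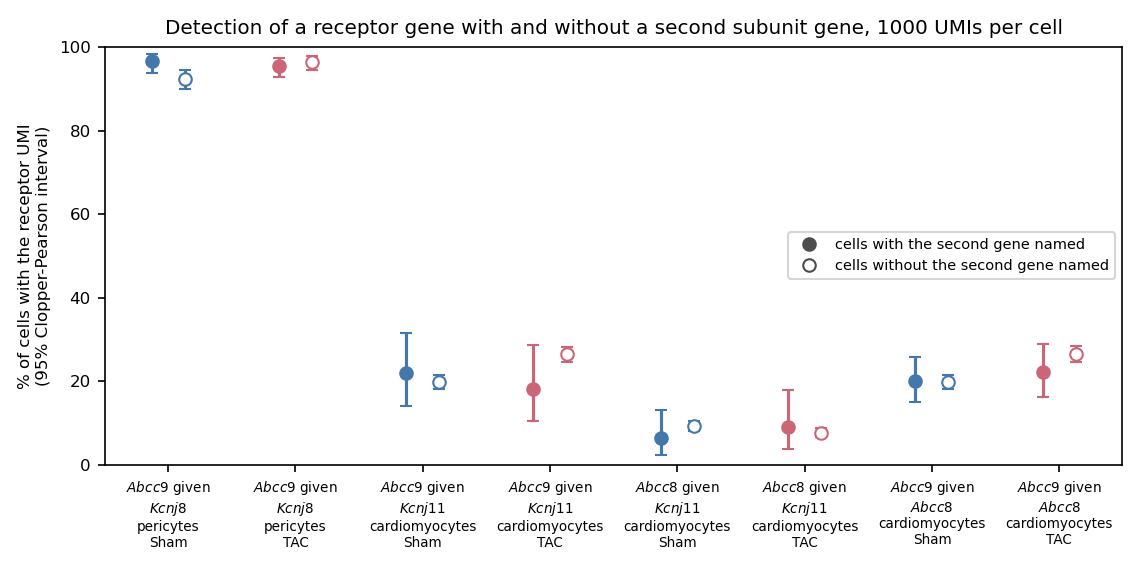
Share of cells with a UMI of a receptor gene (vertical axis, %) among cells with (filled) and without (open) a UMI of a second subunit gene, at 1000 UMIs per cell, with Clopper-Pearson 95% intervals. Pericytes lie between 92.4% and 96.6% with and without Kcnj8, and cardiomyocytes between 6.25% and 26.5% with overlapping intervals in each pair.

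Between the libraries, both pericyte subunits were higher in TAC. Kcnj8 in pericytes had 755 Sham and 1090 TAC UMIs, and the TAC level was 1.38 times the Sham level (1.25 to 1.51). Abcc9 in pericytes had 7328 and 8822 UMIs and a ratio of 1.15 (1.11 to 1.19). Among the 1407 genes with at least 500 pericyte UMIs, the middle 90% of ratios ran from 0.747 to 1.26 around a median of 0.990. A ratio as high as that of Kcnj8 was seen in 1.92% of these genes and as high as that of Abcc9 in 13.4%. There were 0.103 Kcnj8 UMIs per Abcc9 UMI in Sham pericytes (0.0955 to 0.111) and 0.124 in TAC pericytes (0.116 to 0.132), with intervals that did not overlap. Abcc8 in pericytes went from 17 to 7 UMIs, a ratio of 0.393 (0.138 to 0.997), and Kcnj11 had too few UMIs for a call.

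In cardiomyocytes Abcc9 was higher and Abcc8 lower in TAC, and the interval of the Kcnj11 ratio held 1. With cells typed by their own markers the Abcc8 ratio was 0.921 (0.844 to 1.005), whose interval held 1 too, and the Kcnj11 ratio was 1.04 (0.917 to 1.17). Abcc9 had 3070 Sham and 4096 TAC UMIs and a ratio of 1.37 (1.31 to 1.44), and 8.33% of the 5927 genes with at least 500 cardiomyocyte UMIs had a ratio as high. Abcc8 had 1114 and 927 UMIs and a ratio of 0.856 (0.783 to 0.934), within the middle 90% of those genes (0.677 to 1.54). Kcnj11 had 533 and 494 UMIs and a ratio of 0.953 (0.842 to 1.08). Kcnj11 per Abcc9 was 0.174 in Sham (0.158 to 0.190) and 0.121 in TAC (0.110 to 0.132), and Kcnj11 per Abcc8 was 0.478 (0.431 to 0.531) and 0.533 (0.477 to 0.595). Kcnj8 in cardiomyocytes had 15 and 27 UMIs and a ratio of 1.85 (0.9502 to 3.74).

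Read against all genes with at least 20 UMIs over both libraries, the members did not stand out by a ratio past 1.5 in either direction. In cardiomyocytes 1 of 4 members was past 1.5-fold (Kcnj8), against 24.6% of all genes. In pericytes 1 of 3 was (Abcc8, lower), against 20.6%, and in smooth muscle cells the 1 member with enough UMIs was (Abcc9, lower, ratio 0.457 with an interval of 0.163 to 1.12), against 31.2%. These calls rest on few UMIs, 15 and 27 for Kcnj8, 17 and 7 for Abcc8 and 20 and 7 for Abcc9, and the smooth muscle ratio was 1.07 with cells typed by their own markers and 7.49 with doublets left in. The 5 ratios with at least 500 UMIs behind them stayed within 1.5-fold, and of these the interval of Kcnj11 in cardiomyocytes held 1 and the others did not. With cells typed by their own markers Kcnj8 in pericytes was past 1.5-fold, at 1.55 (1.35 to 1.79). In the other types Abcc9 had a ratio of 0.677 (0.490 to 0.934) in macrophages and 0.895 (0.697 to 1.15) in endothelial cells, at levels within or below those of the reference genes, and no ratio is read from lymphatic endothelial cells, where a single cell held 11 of 16 Sham UMIs. How far hearts within a condition differ is not known, so an effect of the constriction cannot be told apart from a difference between the 2 pools of hearts.

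**Figure D5:**
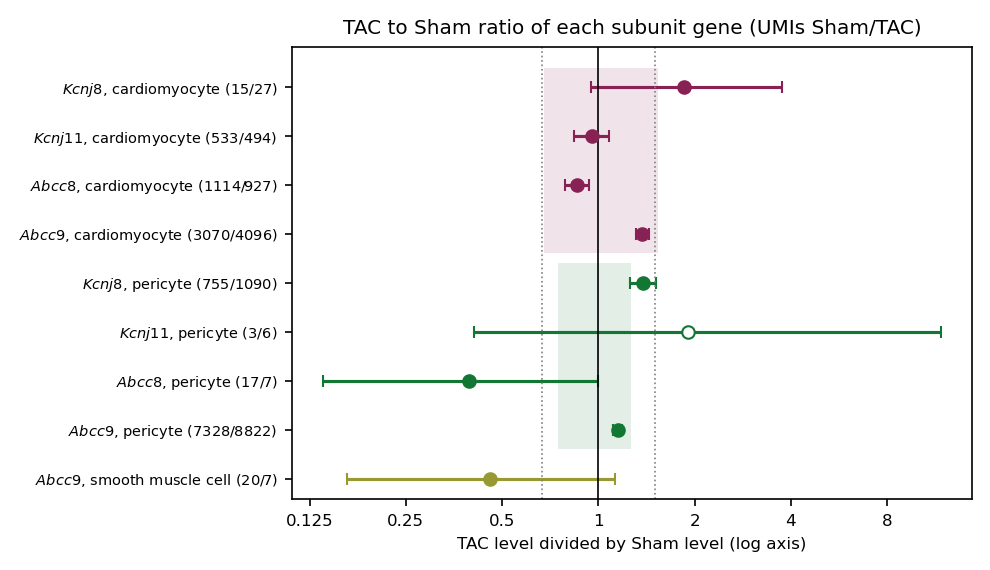
TAC level divided by Sham level (horizontal log axis) for each subunit gene with counts in both libraries, with exact conditional 95% intervals and the UMIs behind each in the row labels. Shaded bands are the middle 90% of genes with at least 500 UMIs in that type, dotted lines mark 1.5-fold, and the open point has under 20 UMIs. Kcnj8 in pericytes (1.38) lies past its band, and Abcc9 in cardiomyocytes (1.37) lies inside its band.

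The pericyte difference was also read within depth classes. Each library was split at its own median depth, so the classes were not matched in depth between the libraries. The shallower cells had medians of 1134 UMIs in Sham and 1309.5 in TAC, and the deeper ones 2175.5 and 2218. In pericytes up to the median depth Kcnj8 was at 467 (413 to 526) in Sham and 609 (551 to 671) in TAC, and in those over the median at 386 (352 to 422) and 545 (505 to 587). Abcc9 was at 3652 and 4544 in the shallower cells and 4152 and 4613 in the deeper ones. TAC was higher in all 4 of these comparisons, with intervals that did not overlap. Each library had a pair of cardiomyocyte clusters, and Abcc9 was at 237 (227 to 248) and 209 (196 to 222) in the Sham clusters and at 286 (272 to 300) and 335 (322 to 349) in the TAC clusters. Both TAC clusters were above both Sham clusters. Abcc8 was at 77.9 and 91.6 in the Sham clusters and 72.4 and 69.2 in the TAC clusters, and Kcnj11 ranged from 36.9 to 43.2 over the 4 clusters.

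Abcc8 was also read in cardiomyocytes without atrial transcripts. The atrial genes Sln, Myl7 and Myl4 had 2, 3 and 62 UMIs in all Sham and 6, 12 and 112 in all TAC cardiomyocytes. Cardiomyocytes without a UMI of Sln, Myl7 or Myl4 had Abcc8 at 83.3 (78.5 to 88.4) in Sham and 70.3 (65.8 to 75.1) in TAC, close to the values over all cardiomyocytes. Cells with at least 3 atrial UMIs numbered 6 in Sham and 8 in TAC. The 8 TAC cells held 11 Abcc8 and 0 Abcc9 UMIs among 44478, an Abcc8 level of 247 (123 to 443) and up to 67.4 for Abcc9, while the 6 Sham cells held 3 and 9. Cardiomyocytes with an Nppa or Nppb UMI had Kcnj11 at 42.5 (34.7 to 51.5) in Sham and 25.9 (17.9 to 36.2) in TAC, Abcc8 at 79.6 and 50.3, and Abcc9 at 202 and 257. Cells without either UMI had Kcnj11 at 38.9 and 39.0, Abcc8 at 83.3 and 72.9 and Abcc9 at 233 and 318.

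Genes that supply or sense the nucleotides read by the channel are adenylate kinases, creatine kinases, lactate dehydrogenase and the catalytic subunits of AMP-activated kinase. Of the 10 listed, all 10 had enough UMIs in cardiomyocytes, 1 was past 1.5-fold higher in TAC and 0 lower (24.6% of all genes were past it either way), and the median ratio was 1.07 against 1.03 for all genes. The one past it was Ldha, which encodes a lactate dehydrogenase subunit, with 26.6 and 40.9 UMIs per 1000000 and a ratio of 1.54 (1.34 to 1.76). Ckmt2, the mitochondrial creatine kinase of striated muscle, was at 969 and 1035, and Prkaa2, the AMP-activated kinase subunit of muscle, at 191 and 219. In pericytes 8 of the 10 had enough UMIs and 0 passed 1.5-fold in either direction (median 1.07 against 1.004 for all genes). In smooth muscle cells 2 had enough UMIs, Ckb (13 and 17 UMIs) and Prkaa2 (15 and 24), and both were past 1.5-fold higher, with intervals of 0.780 to 3.82 and 1.05 to 4.28, where 31.2% of all genes were past it in either direction.

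Of the 7 genes listed for anchoring and trafficking, all 7 had enough UMIs in cardiomyocytes, 0 were higher and 2 lower, with a median ratio of 1.07, against 24.6% of all genes past 1.5-fold in either direction. Among the lower ones was Ehd1, an endocytic recycling protein, with a ratio of 0.634 (0.543 to 0.739). Ank2, an ankyrin that binds Kir6.2, was at 1444 and 1633 UMIs per 1000000, a ratio of 1.13 (1.11 to 1.15). In pericytes 6 of 7 had enough UMIs and 2 were lower (20.6% of all genes were past 1.5-fold either way), with a median of 0.816, among them caveolin Cav1 (42.0 and 23.4 per 1000000, ratio 0.558, 0.377 to 0.816). In smooth muscle cells 3 had enough UMIs and 0 passed 1.5-fold (median 0.725 against 0.978 for all genes).

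Of the 10 receptors and kinases listed as acting on the channel, 9 had enough UMIs in cardiomyocytes, and 1, Prkaca, a catalytic subunit of protein kinase A, was past 1.5-fold (34.4 and 52.1 UMIs per 1000000, ratio 1.52, 1.35 to 1.71), against 24.6% of all genes. The median ratio was 0.954. In pericytes 8 had enough UMIs and 0 passed 1.5-fold, with a median of 1.005. Calcrl, the receptor of calcitonin gene-related peptide and adrenomedullin, came nearest in pericytes at 77.4 and 113 per 1000000 (ratio 1.47, 1.18 to 1.82). The endothelin receptor Ednra was at 452 and 474 there, and the adenosine receptor Adora2a at 32.7 and 22.4. Ramp1, the partner of Calcrl in the peptide receptor, had 1 and 2 UMIs in pericytes. In smooth muscle cells 5 had enough UMIs (31.2% of all genes were past 1.5-fold either way), Calcrl was past 1.5-fold higher (12 and 16 UMIs) and Prkca lower (32 and 14 UMIs), and the median was 1.07.

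The other genes of both families were set beside the members. Of 12 other inward rectifier pore genes, 6 had enough cardiomyocyte UMIs and 2 enough pericyte UMIs, and in smooth muscle cells 0 did. The shares of all genes past 1.5-fold were 24.6% in cardiomyocytes, 20.6% in pericytes and 31.2% in smooth muscle cells. Kcnj3, a subunit of the acetylcholine-activated channel, was at 473 and 617 UMIs per 1000000 in cardiomyocytes (ratio 1.30, 1.26 to 1.35), its partner Kcnj5 at 27.4 and 39.4 (1.44, 1.25 to 1.65), and Kcnj12, a subunit of the background rectifier, at 50.6 and 35.8 (0.707, 0.627 to 0.797). Kcnj13 was the 1 pore gene past 1.5-fold in cardiomyocytes, at 4.004 and 9.38 (2.34, 1.69 to 3.29). In pericytes the highest of the 12 was Kcnj3 at 39.8 and 35.4, Kcnj13 was past 1.5-fold higher (15 and 25 UMIs), and Kcnj2 had 5 UMIs in each library. Kcnj3 was at similar levels in endothelial cells (38.8 and 48.0) and macrophages (28.5 and 38.7). Whether its pericyte UMIs are free RNA from cardiomyocytes was not tested. Of 8 other Abcc transporters, 5 had enough cardiomyocyte UMIs, of which Abcc6 was past 1.5-fold higher (6 and 14 UMIs) and Abcc10 lower (0.657, 0.530 to 0.813). In pericytes 4 had enough and 0 passed 1.5-fold, and in smooth muscle cells the 1 with enough, Abcc5, was lower (19 and 9 UMIs). Abcc5, an exporter of cyclic nucleotides, was at 130 and 112 in pericytes and 172 and 150 in cardiomyocytes.

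Genes whose levels followed the members most closely were ranked by Pearson's r of log2(level + 1) over 14 points, 7 cell types in 2 libraries, among 12864 genes with at least 100 UMIs in each library. The points share library, depth and free RNA, so r is a description. The fibroblast points hold 2290 Sham and 501 TAC cells, since 1627 TAC cells with fibroblast markers stayed unnamed. For Kcnj8 the 5 highest included Pde8b (0.94), Vtn (0.92), Iqsec3 (0.92) and Cdk4 (0.91), of which Vtn is a pericyte marker. For Abcc9 they were Fam162a (0.94), Pcca (0.92), 5330439B14Rik (0.90), Grip1 (0.89) and 9330188P03Rik (0.89). For Kcnj11 they were Mir133a-1hg (0.97), the host of a muscle microRNA, Myadml2os (0.97), Gm5860 (0.96), Bves (0.96) and Gm49405 (0.96), and for Abcc8 Art5 (0.97), Gm47547 (0.97), BC002189 (0.97), Rap1gap (0.97) and Vwa8 (0.96). Kcnj8 and Abcc9 followed each other with an r of 0.80, rank 26 for both. Kcnj11 and Abcc8 had an r of 0.54, ranks 1304 and 1362.

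Transcripts annotated across the members were counted apart. The antisense RNA 5330439B14Rik overlaps Abcc9 by 11868 bases on the plus strand, and it had 134 Sham and 279 TAC UMIs in pericytes and 93 and 175 in cardiomyocytes. The antisense RNA Gm45486 overlaps Abcc8 by 7217 bases and had 68 and 153 UMIs in cardiomyocytes, while Abcc8 itself had 1114 and 927. The sense-strand record Gm45487 overlaps Abcc8 by 545 bases and had 2 and 5. Antisense UMIs were fewer than those of the member in each case. Whether the counting used strand is not given in the sources used here, so a share of reads could be counted for the wrong partner, and that share was not tested.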

How the data were processed

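Single-cell 3' libraries (10x Genomics) were made from pooled mouse hearts, 1 per condition. The matrices hold UMI counts per gene and barcode, which the authors deposited after filtering by Cell Ranger 7.1.0 according to the submitters' processing notes. The paper that reported the data names an earlier Cell Ranger version, and which of them holds was not settled. The genome build and whether intronic reads were counted are not given in the sources used here.

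Barcodes with at least 200 detected genes were kept, and doublets called by Scrublet in scanpy 1.11.5 (459 Sham and 479 TAC) were removed. Each library was clustered by itself (2000 variable genes, 30 principal components, Leiden resolution 1) with the members, the listed genes and mitochondrial genes left out. Naming a cluster took 3 or more markers, and it stayed unnamed where its 10 leading genes held more markers of another type. One Sham cluster of 49 cells led by cell-cycle genes also stayed unnamed. Members were described in named types with at least 40 cells in both libraries, and rarer types were given by count only.

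Levels are UMIs summed per type and library, per 1000000 UMIs of the type, with exact Poisson intervals. Shares have Clopper-Pearson intervals and ratios exact conditional binomial intervals (scipy 1.17.1), all at 95%. Intervals and floors (3 counts where 0 were seen) cover counting error only. With 1 library per condition no p-value was computed, and a gene with at least 20 UMIs over both libraries was called past 1.5-fold in either direction. Cells were thinned to 1000 UMIs for shares of cells. Listed genes were named by their level and by the ratios farthest from 1, up to 4 per list and type, and 2 genes that this rule names are not reported here. The fold rule and intervals were tested on simulated independent Poisson counts, and the thinning on simulated cells of fixed counts. These simulations held no spread between cells or between hearts, so they do not show how the intervals behave with it. Of the 55357 gene identifiers, 52081 (94.1%) were in GENCODE M21, which gave the positions. The members and gene lists were chosen with earlier results of these data known. The alternatives covered 15 settings of filtering, clustering, naming and thinning.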

Additional observations from a re-analysis of the deposited data

How the results depend on the processing

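Of 222 values recomputed under 15 settings, 177 stayed within the counting interval of the reported value and 43 did not. The other 2 were ratios reported past 1.5-fold that changed direction, both of Abcc9 in smooth muscle cells. The Kcnj11 ratio in cardiomyocytes, reported at 0.953, also crossed 1, to 1.04 with cells typed by their own markers, within its interval. The TAC to Sham ratio ranged from 1.34 to 1.55 for Kcnj8 and from 1.12 to 1.23 for Abcc9 in pericytes, and in cardiomyocytes from 1.25 to 1.45 for Abcc9, from 0.824 to 0.921 for Abcc8 (the highest, with cells typed by their own markers, has an interval of 0.844 to 1.005 that holds 1) and from 0.912 to 1.04 for Kcnj11.

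With cells typed by their own markers, the ratio of Kcnj8 in pericytes was 1.55, that of Abcc9 in cardiomyocytes 1.25 and that of Abcc9 in smooth muscle cells 1.07, which turned direction. The smooth muscle Abcc9 level was then 782 in Sham and 837 in TAC, the pericyte share of Kcnj8 36.9% and 52.3%, that of Abcc9 31.9% and 38.2%, and the cardiomyocyte share of Kcnj11 97.5% and 95.5%. With no doublets removed, the smooth muscle Abcc9 ratio was 7.49, which turned direction, its TAC level 1111 and the pericyte Abcc9 ratio 1.23. The pericyte share was then 89.5% and 85.8% for Kcnj8 and 65.7% and 61.6% for Abcc9, and the cardiomyocyte share of Kcnj11 86.6% and 86.7%. At resolution 2, with 92 Sham smooth muscle cells and 1022 Sham pericytes, the smooth muscle Abcc9 ratio was 0.0749 and its Sham level 957. The cardiomyocyte Abcc9 ratio was then 1.45, the Sham pericyte share of Abcc9 65.4% and the Sham cardiomyocyte share of Kcnj11 79.0%. That last share was 88.8% with at least 500 detected genes and 90.1% with at most 25% mitochondrial UMIs, and the TAC share was 81.5% with more variable genes and components.

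The share of pericytes with Abcc9 among those with and without Kcnj8 was 82.0% and 79.2% in Sham and 83.6% and 83.7% in TAC at 500 UMIs per cell, and 99.3% and 98.9% in Sham and 99.6% and 99.2% in TAC at 2000. Without thinning it was 97.1% (95.1% to 98.4%) and 91.6% (89.1% to 93.6%) in Sham, and 98.0% and 96.2% in TAC. With shared barcodes removed, which left 1063 of the 1064 Sham pericytes, the UMIs were drawn anew. The Sham values were then 97.9% (95.4% to 99.2%) and 91.8% (89.2% to 93.8%), and in neither Sham pair did the intervals overlap. Without thinning, depth was not held equal between cells, and the intervals of Abcc9 with and without Kcnj11 in cardiomyocytes did not overlap either. The cause of these changes was not tested. No Kcnj8 ratio was given for smooth muscle cells, with 1 and 0 UMIs. No paired analysis was possible because Sham and TAC each had 1 library, and for the same reason no replicate could be left out. Smooth muscle values rest on 127313 Sham and 97590 TAC UMIs.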

Other observations

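Relatives of the subunit genes were highest in other types among those compared. Abcc3, an organic anion transporter of the same family as the sulfonylurea receptors, had 250 Sham and 261 TAC UMIs in macrophages, at 113 (99.6 to 128) and 100 (88.3 to 113) UMIs per 1000000, and 0 and 4 UMIs in pericytes. Abcc1, which exports glutathione conjugates, was at 237 and 281 in macrophages, against 121 and 128 in fibroblasts, 104 and 100 in cardiomyocytes and 28.0 and 40.5 in endothelial cells. Abcc4, which exports cyclic nucleotides, was at 199 (181 to 217) and 217 (201 to 234) in endothelial cells, at 75.9 and 73.8 in fibroblasts, at 74.3 and 75.5 in macrophages and at 26.4 and 19.6 in cardiomyocytes. The TAC fibroblast values leave out the 1627 unnamed cells, so they are not read as a comparison with Sham.

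The pore gene Kcnj13 had more UMIs in TAC in several types at low levels. It went from 9 to 41 UMIs in endothelial cells, at 3.71 (1.70 to 7.05) and 12.7 (9.10 to 17.2) per 1000000, from 4 to 27 in macrophages, at 1.81 (0.493 to 4.64) and 10.4 (6.82 to 15.1), and from 54 to 123 in cardiomyocytes, at 4.004 (3.01 to 5.22) and 9.38 (7.79 to 11.2). In each of these types the intervals of the libraries did not overlap, and the cause was not tested.

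With clusters drawn at resolution 0.5, 2290 Sham and 2127 TAC cells were named fibroblasts. Abcc9 had 274 and 276 UMIs in them, a ratio of 1.05 (0.888 to 1.25), and Kcnj8 had 25 and 31.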
